A study of Rattus norvegicus with 8 samples.

Results

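The transforming growth factor beta (TGF-beta) and bone morphogenetic protein (BMP) signalling genes were examined in the neurohypophysis of young and adult rats. The neurohypophysis, or neural lobe, is the posterior part of the pituitary, where vasopressin and oxytocin axons end among glia called pituicytes and a dense capillary bed. Members were the genes whose symbol matched a fixed pattern of family ligands, receptors, Smads, secreted binding proteins and target genes. They also needed a value of at least 10 depth-normalized counts in at least 4 of the 8 libraries. Of 71 genes that matched the pattern among 33294 listed, 63 met the level and 8 did not. The younger group, labelled as the control, was 35 days old (4 libraries) and the older group 125 days old (4 libraries), all of them male rats of the Sprague Dawley strain. All were perfused with buffered saline under isoflurane and had no other labelled treatment, and poly(A) RNA of the lobe was sequenced. Whether the libraries of an age were made from different animals is not stated in the labels. The p-values therefore rest on the spread among libraries, part of which may be technical.

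Ligands of this superfamily are secreted dimers that bring type I and type II receptor kinases together. The receptors phosphorylate Smad proteins, which join Smad4 and enter the nucleus: Smad2 and Smad3 after TGF-beta and activin, and Smad1, Smad5 and Smad9 after BMPs. TGF-beta is stored in the matrix in a latent complex held by binding proteins. BMPs are held in check by antagonists such as noggin, gremlin and chordin, and the Id genes are direct BMP targets. In blood vessels and connective tissue the pathway is known for its part in mural cell recruitment and matrix deposition.

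At 125 days, 15 of the 63 members were lower and 4 were higher than at 35 days, and 44 did not pass the test. The genes that fell were the ligands Tgfb1, Tgfb2, Inhba, Bmp4, Bmp15, Gdf5, Gdf7 and Gdf10, the proteinase gene Bmp1, the binding proteins Ltbp2 and Ltbp4, the BMP regulator Bmper, and the targets Id1, Id3 and Tgfbi. Bmp6, Gdf11, Chrdl1 and Fstl5 rose. The test was limma on log2(value + 1) over 17919 genes, two-sided, with calls at a Benjamini-Hochberg adjusted p below 0.05. Of all genes tested 8.87% were called lower and 8.85% higher (17.7% either way), against 23.8% and 6.35% of the members. The median log2 change, 125 minus 35 days, was -0.13 over the members and 0.01 over all genes tested. The members' median was -0.063 without 35-day replicate 1, -0.073 without 35-day replicate 2 and -0.24 without 35-day replicate 3. It was -0.32 when the anterior lobe marker level was added to the fit and 0.084 when the endothelial marker level was. The ages did not overlap in 13 members that were lower and 5 that were higher at 125 days, where 11.5% and 13.4% of all genes were so. edgeR on the recovered reads also called 15 members lower and 4 higher (9.22% and 8.47% of all genes), and DESeq2 called 18 and 5 (12.3% and 11.2%). Under scaling by total reads the members' counts were 15 and 1. The calls over all genes were then 1978 lower and 1161 higher, beside 1589 and 1585 under the deposited scaling.

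**Figure D1:**
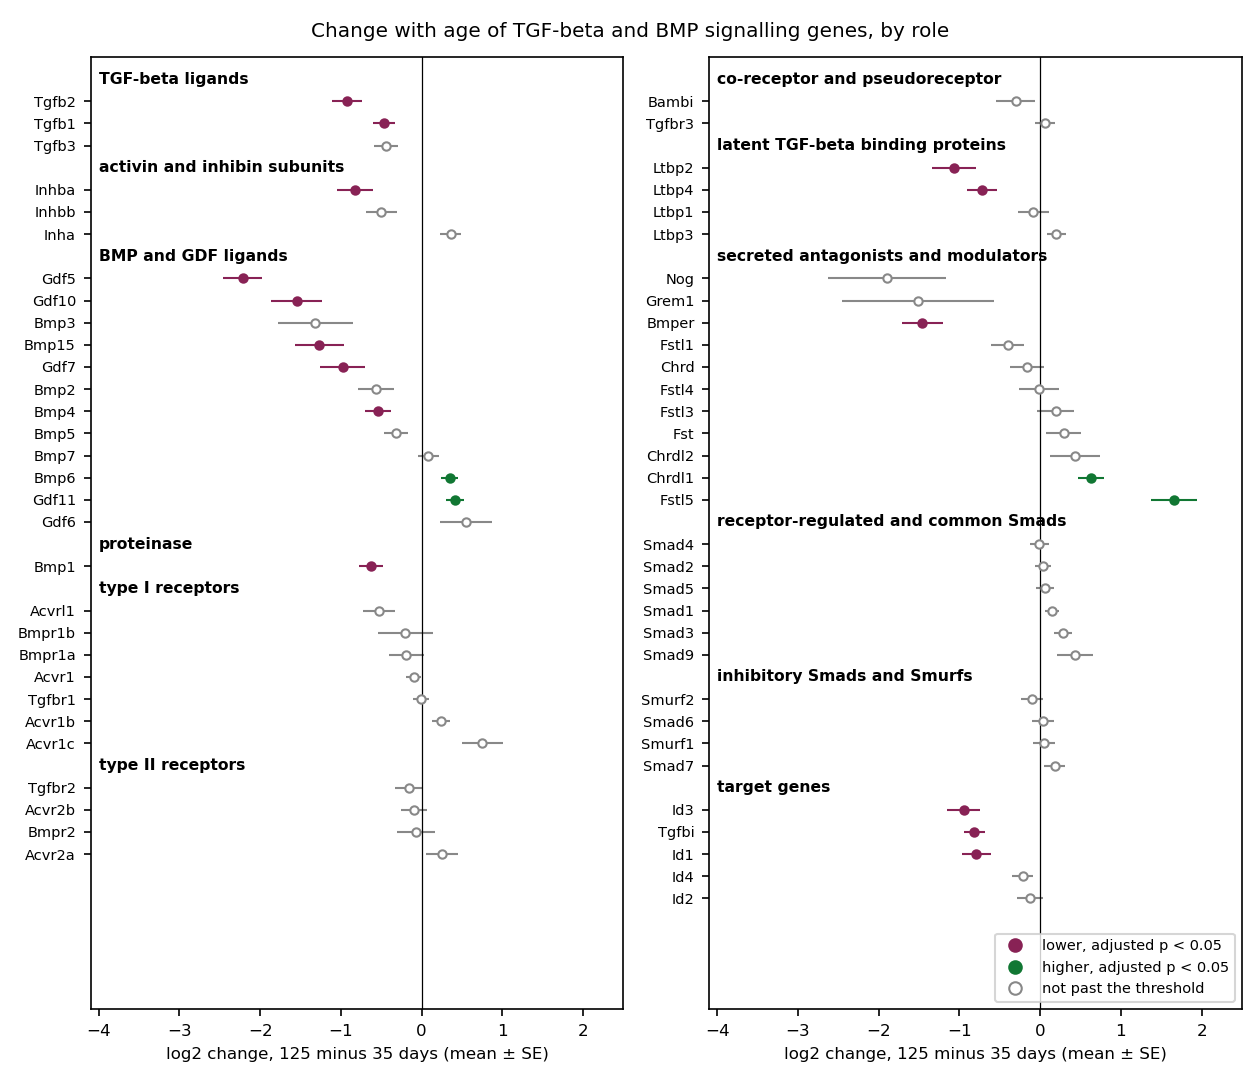
Log2 change from 35 to 125 days (x axis, mean with SE, n = 4 libraries per age) of the members, grouped by role; filled points passed the test. Filled points to the left are 15 genes, among them 8 of 18 ligand genes. None of the 13 receptor, co-receptor and pseudoreceptor genes or 10 Smad and Smurf genes is filled. Of all genes tested 8.87% were called lower and 8.85% higher, 17.7% either way. Without 35-day replicate 3 (not drawn here), 3 of the 13 and 1 of the 10 were called lower, beside 14.8% of all genes.

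Libraries held 28429133 to 58696254 recovered reads. Tissue bordering the lobe was present in all of them: Pomc, the hormone precursor of the intermediate lobe, took 5.65 to 14.3% of reads. By replicate, its share ran 6.44, 5.65, 10.2 and 6.78% in the younger group, then 13.4, 10.1, 12.2 and 14.3% in the older. Of 5 intermediate lobe markers, Pcsk2 (log2 change 0.79) and Oacyl (0.57) were called higher and none lower. Pomc (0.87), Tbx19 (0.26) and Pax7 (-0.01) were not called (adjusted p = 0.333, 0.340 and 0.984). The list's mean log2 level peaked at 15.18 in the younger group, below the lowest older library (15.35). Its summed level overlapped, at 2009425 to 3759826 depth-normalized counts at 35 days and 3620313 to 5344437 at 125 days. The part of this tissue in the members' changes was not tested. Anterior lobe markers (13 genes, none at 0 in any library) had a mean log2 level of 9.19 to 13.1 at 35 days and 7.89 to 9.61 at 125 days, and 35-day replicate 3 was the highest. Their summed level ran from 49573 to 1413828 depth-normalized counts at 35 days and from 27821 to 74251 at 125 days. All 14 pituicyte markers passed the level filter, and 4 of them were lower at 125 days, Gfap (-1.62), S100b (-1.39), Aqp4 (-1.22) and Fabp7 (-1.64), with none higher. Without 35-day replicate 3, 23 members were lower and 5 higher (14.8% and 15.9% of all genes), and 18 of the 19 calls remained. Once the fit held the anterior lobe level as a further term (the anterior lobe covariate), 14 were lower and 1 higher (7.32% and 7.16% of all genes). That fit kept 9 of the 19 calls, and none of the 19 changed sign in it. Of the 13 anterior lobe markers 4 were themselves called lower at 125 days and 0 higher, and Tbx19 is also on the intermediate lobe list. Since that level went partly with age, what belongs to age and what to the level cannot be fully told apart in this fit. Without 125-day replicate 3, 7 members were lower and 1 higher, the fewest called lower for any left-out library. Over all 17919 genes 1032 were then called lower and 916 higher, beside 1589 and 1585 with all 8 libraries.

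**Figure D2:**
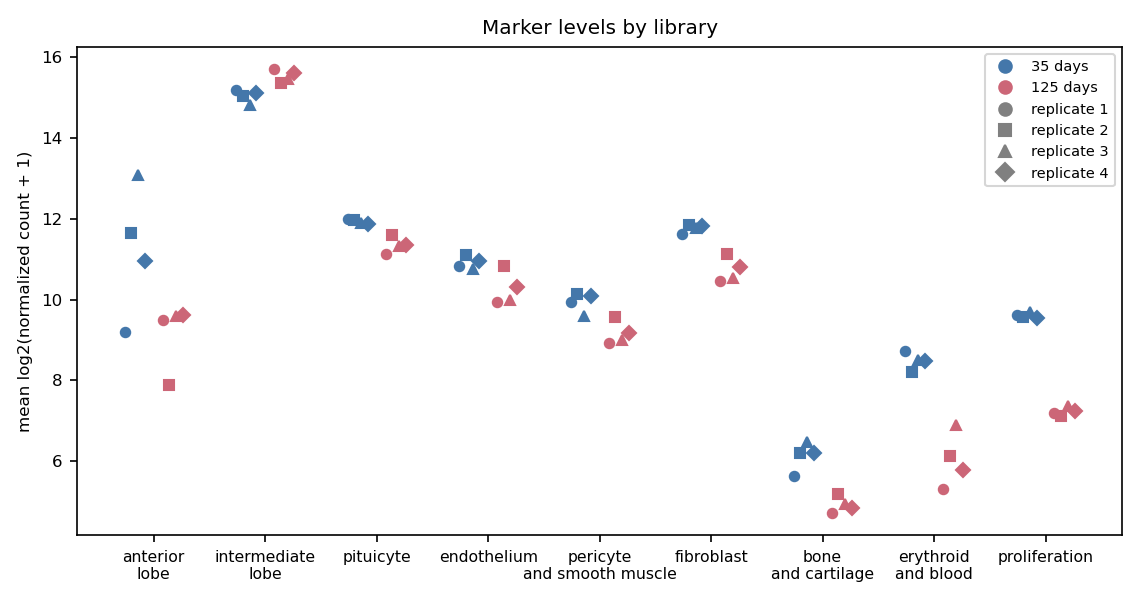
Mean log2(normalized count + 1) of 9 marker lists (x axis) in each library, coloured by age and shaped by replicate; levels compare libraries within a list, not lists with each other. The anterior lobe level of 35-day replicate 3 (13.1) lies above those of the other libraries. The 125-day replicate 2 is the highest of its age for the endothelial, mural, fibroblast, pituicyte, and bone and cartilage lists.

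Of the TGF-beta genes, Tgfb2 fell most. Tgfb2 was at 3169, 4064, 2427 and 2887 depth-normalized counts in 35-day replicates 1 to 4, and at 1343, 2234, 1464 and 1584 in 125-day replicates 1 to 4. Every 125-day library lay below every 35-day library, and replicate 2 was the highest at both ages. The log2 change was -0.92 (SE 0.19, adjusted p = 0.00822), and without 35-day replicate 3 it was -1.04 (SE 0.17). With the endothelial marker level added to the fit, chosen after seeing the data, it was -0.34 and did not pass (adjusted p = 0.373). Tgfb1, the isoform best known from immune and vascular cells, was at 789, 973, 841 and 881 at 35 days and at 496, 772, 638 and 640.3 at 125 days. Its ages were separated by a narrow gap, from 772 to 789, and the log2 change was -0.47 (SE 0.14, adjusted p = 0.0433). Tgfb1 was no longer called without the level filter or with the anterior lobe covariate (-0.51, adjusted p = 0.104). It was also lost when 35-day replicate 1, 2 or 4 or 125-day replicate 1, 3 or 4 was left out (adjusted p = 0.0581 to 0.118).

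Tgfb3 did not pass the test. It was at 4589, 4845, 3836 and 5171 at 35 days and at 2949.9, 4427, 3244 and 3071 at 125 days, a log2 change of -0.44 (SE 0.14, adjusted p = 0.0622). Only 125-day replicate 2 reached into the 35-day range. The Tgfb3 change passed the threshold without 35-day replicate 3 (-0.53, adjusted p = 0.0125), with the anterior lobe covariate (-0.68, adjusted p = 0.0232), in DESeq2, under upper-quartile scaling (adjusted p = 0.0448) and without 125-day replicate 2.

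Inhba encodes the beta A subunit, which forms activin A with itself and an inhibin with the alpha subunit. Inhba was at 592, 602, 405 and 470.2 at 35 days and at 218, 423, 232 and 323 at 125 days. The 35-day value of replicate 3 was below the 125-day value of replicate 2, so the ages overlapped. The log2 change was -0.82 (SE 0.22, adjusted p = 0.0290), or -1.20 (adjusted p = 0.0120) with the anterior lobe covariate, and it did not pass once 35-day replicate 1 or 2 or 125-day replicate 1, 3 or 4 was left out (adjusted p = 0.0579 to 0.0884). The alpha subunit gene Inha (0.36, SE 0.13, adjusted p = 0.0934) and the beta B subunit gene Inhbb (-0.50, SE 0.20, adjusted p = 0.108) did not pass with all 8 libraries. Inha passed without 35-day replicate 3 (0.46, adjusted p = 0.0100) and Inhbb without 125-day replicate 2 (-0.64, adjusted p = 0.0494). Both are known from the gonadotrophs of the anterior lobe. Among the 35-day libraries each was highest in replicate 3, at 344 and 1346. At 125 days Inha was at 343 to 405 and Inhbb at 599 to 966, while the gonadotroph genes Lhb (-4.69) and Gnrhr (-2.82) were lower. The part of gonadotrophs in the Inha and Inhbb values was not tested. Inhbc and Inhbe were below the level for membership.

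Among 12 BMP and growth differentiation factor (GDF) ligand genes, 5 fell and 2 rose (8.87% and 8.85% of all genes), and 5 did not pass. Gdf5, a ligand known from joint and skeletal development, had the lowest adjusted p of all members. Gdf5 was at 112, 132, 160.2 and 122 at 35 days and at 20.3, 33.2, 37.8 and 21.5 at 125 days. The lowest 35-day value was above the highest 125-day value by more than the range within either age. The log2 change was -2.22 (SE 0.24, adjusted p = 2.45e-04), 4.65-fold lower at 125 days. It was the member called in each of the 20 alternative fits, with log2 changes from -2.37 to -2.06.

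Gdf10, a relative of Bmp3, was at 18.3, 30.0, 25.1 and 19.2 at 35 days and at 7.11, 5.86, 5.04 and 11.7 at 125 days, from 4 to 12 reads per 125-day library. Its ages did not overlap, and the log2 change was -1.55 (SE 0.32, adjusted p = 0.00911), or -1.24 (adjusted p = 0.0889) with the anterior lobe covariate. Bmp15, best known as an oocyte factor, was at 64.5, 62.0, 144 and 78.5 at 35 days and at 45.7, 24.4, 30.3 and 37.1 at 125 days. Its 35-day replicate 3 stood above the other libraries, and the log2 change was -1.27 (SE 0.30, adjusted p = 0.0176), with an adjusted p of 0.0125 without that library. With the anterior lobe covariate it was -0.70 (SE 0.32, adjusted p = 0.183), and without 125-day replicate 3 the adjusted p was 0.0528.

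Bmp4, a ligand that patterns the embryonic pituitary, went from 189 ± 29.7 to 129 ± 16.9 (SD, n = 4; log2 change -0.54, SE 0.16, adjusted p = 0.0430). Bmp4 failed the threshold without the level filter and with the replicate block (adjusted p = 0.0577). It also failed in 7 of the 8 fits with a library left out, all but that without 35-day replicate 3 (adjusted p = 0.0604 to 0.125). Gdf7, known from the roof plate of the neural tube, went from 32.9 ± 7.15 to 16.5 ± 4.96 (log2 change -0.98, SE 0.28, adjusted p = 0.0369). Gdf7 failed the threshold without the level filter, with the replicate block (adjusted p = 0.0581) and with the anterior lobe covariate (-0.75, adjusted p = 0.223). It also failed when 35-day replicate 2, 3 or 4 or 125-day replicate 1, 2 or 3 was left out (adjusted p = 0.0511 to 0.103).

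Bmp6, a ligand known from hepatic iron control and bone, was at 1281, 1148, 1298 and 1341 at 35 days and at 1595, 1505, 1489 and 1876 at 125 days. All 125-day libraries were above the 35-day range, by a log2 change of 0.35 (SE 0.10, adjusted p = 0.0404). Bmp6 did not pass under scaling by total reads (0.28, adjusted p = 0.0809) or upper quartile (0.32, adjusted p = 0.0611). Nor did it pass without the level filter, with the replicate block (adjusted p = 0.0546) or with the anterior lobe covariate (0.37, adjusted p = 0.105). It held without 35-day replicate 3 and was lost without any other library (adjusted p = 0.0517 to 0.127). Gdf11, a close relative of myostatin, was at 2935, 2924, 2274 and 3123 at 35 days and at 3751, 3718, 3468 and 3939.6 at 125 days. Its ages were also separate, with 35-day replicate 3 the lowest library, and the log2 change was 0.41 (SE 0.11, adjusted p = 0.0280). The Gdf11 change was 0.35 (adjusted p = 0.0851) under scaling by total reads and 0.26 (adjusted p = 0.223) with the anterior lobe covariate. Gdf11 failed the threshold, too, when 35-day replicate 2 or a library of 125 days was left out (adjusted p = 0.0560 to 0.0925).

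The ligand genes that did not pass with a change of at least 0.5 were Bmp2 (-0.57, SE 0.22, adjusted p = 0.111), Bmp3 (-1.32, SE 0.46, adjusted p = 0.0798) and Gdf6 (0.55, SE 0.32, adjusted p = 0.271). Bmp3 was at 13.1 in 35-day replicate 3 and at 31.0 to 49.6 in the other 35-day libraries, against 7.82 to 24.4 at 125 days. Without that replicate its log2 change was -1.70 (adjusted p = 0.00938), and with the anterior lobe covariate -2.24 (adjusted p = 0.0137). Bmp3 also passed with the replicate block (adjusted p = 0.0491), in DESeq2 and without 125-day replicate 2, and Bmp2 passed without 35-day replicate 3 (adjusted p = 0.0360). Bmp5 and Bmp7 had log2 changes of -0.32 and 0.09. Bmp5 passed without 35-day replicate 3 (-0.44, adjusted p = 0.0125) and with the anterior lobe covariate (-0.61, adjusted p = 0.0211). The ligand genes Bmp10, Gdf1, Gdf2, Gdf3, Gdf9 and Gdf15, were below the level for membership. Near that level on the inside were Gdf10 and Nog, in which 4 libraries reached at least 18.3 and 19.3, and on the outside Gdf15, Gdf9 and Gdf3, in which 4 reached 5.04, 2.18 and 1.02.

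**Figure D3:**
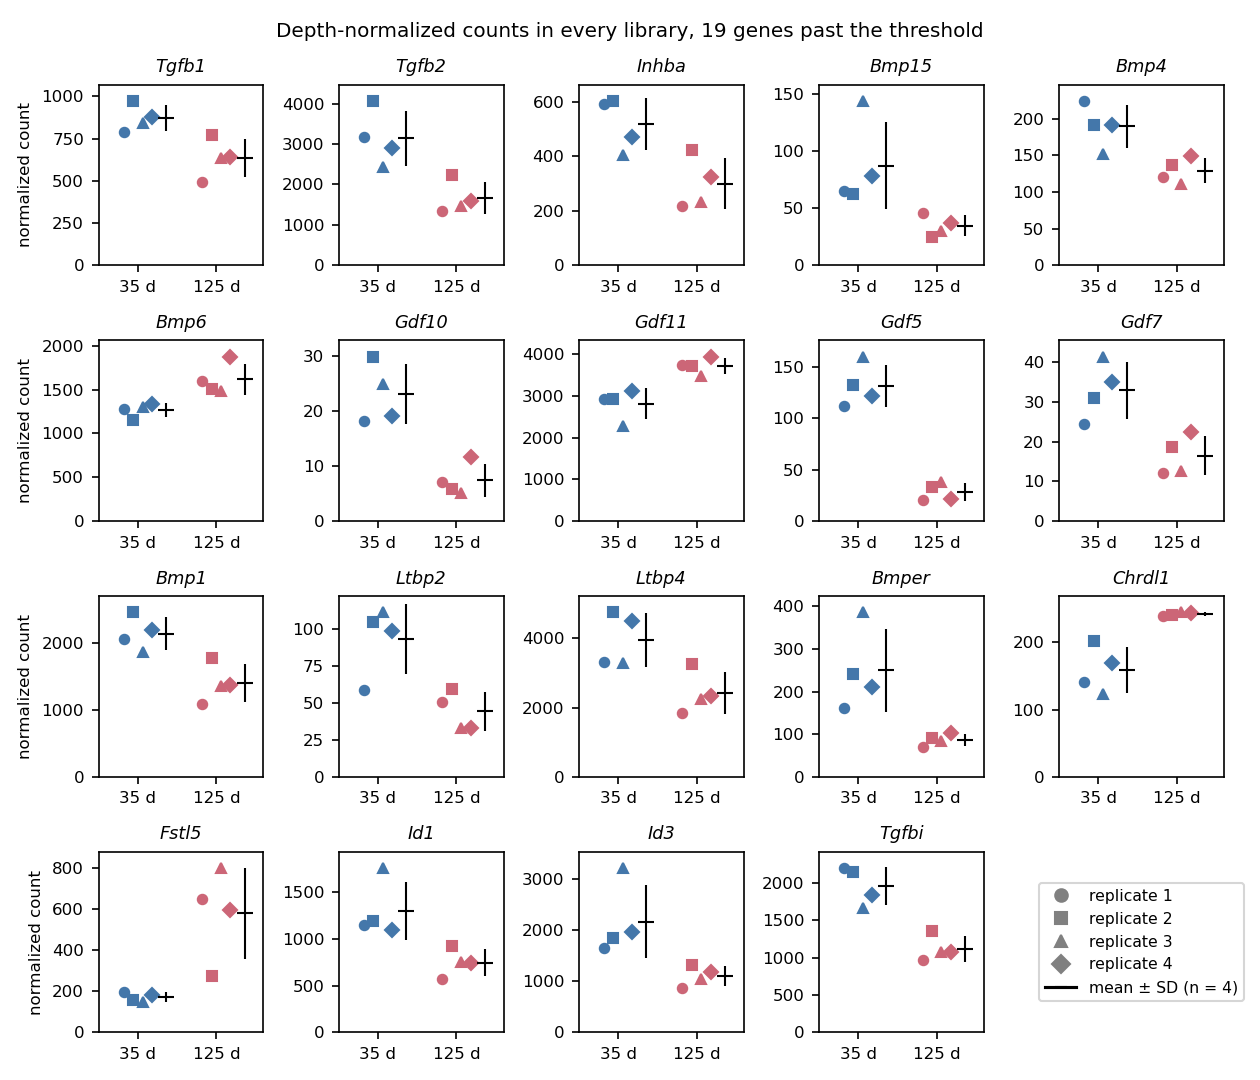
Depth-normalized counts (y axis, from 0) of the 19 genes that passed the test, with a marker for each library by replicate and the mean with SD (n = 4) in black. The ages are separate in 17 panels and overlap in those of Inhba and Ltbp2; 35-day replicate 3 is the highest of all libraries in 7 panels, among them Bmp15, Bmper, Id1 and Id3.

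Despite its name Bmp1 is a metalloproteinase that cleaves procollagens, chordin and latent TGF-beta binding proteins. Bmp1 was at 2052, 2453, 1855 and 2186 at 35 days and at 1082, 1779, 1358 and 1365 at 125 days. Its ages were separate, with 125-day replicate 2 close below the 35-day range, and the log2 change was -0.63 (SE 0.15, adjusted p = 0.0176). Without 35-day replicate 2 or 125-day replicates 3 or 4 the adjusted p was 0.0521 to 0.0538.

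Of the 4 genes for latent TGF-beta binding proteins, matrix proteins related to fibrillin, 2 fell (8.87% of all genes) and 2 did not pass. Ltbp4, which also serves elastic fibre assembly, was at 3305, 4754, 3279 and 4493 at 35 days and at 1833, 3249, 2262 and 2337 at 125 days. The 125-day replicate 2 came up to just below the 35-day range, and the log2 change was -0.72 (SE 0.19, adjusted p = 0.0247). Ltbp2, a microfibril protein that does not bind latent TGF-beta, was at 58.4, 104, 111 and 98.8 at 35 days and at 50.8, 59.6, 32.8 and 33.2 at 125 days. Its ages overlapped at 35-day replicate 1 and 125-day replicate 2 (log2 change -1.07, SE 0.27, adjusted p = 0.0241). Ltbp4 did not pass once 35-day replicate 2 or 4 or 125-day replicate 1, 3 or 4 was left out (adjusted p = 0.0615 to 0.0742). Ltbp2 failed likewise for 35-day replicates 2 and 4 and 125-day replicates 3 and 4 (adjusted p = 0.0554 to 0.0750), and with the anterior lobe covariate (-0.86, adjusted p = 0.152). Ltbp1 and Ltbp3, which bind latent TGF-beta, had log2 changes of -0.08 and 0.20 (adjusted p = 0.808 and 0.281).

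Among 12 genes for secreted antagonists and modulators, 1 fell and 2 rose (8.87% and 8.85% of all genes), and 9 did not pass. Fstl5, a follistatin-like secreted protein, had the largest rise of the members. Fstl5 was at 197, 156, 149 and 184 at 35 days and at 649, 275, 799 and 597 at 125 days. All 125-day libraries were above the 35-day range, though replicate 2 was far below the others of its age. The log2 change was 1.66 (SE 0.29, adjusted p = 0.00373), 3.16-fold, and it was 1.59 (SE 0.30) without 35-day replicate 3 and 1.82 (SE 0.39, adjusted p = 0.0133) with the anterior lobe covariate. Chrdl1, a chordin-like BMP antagonist, was at 141, 203, 123 and 169 at 35 days and at 239, 241, 245 and 243 at 125 days. The 125-day libraries were nearly level with each other and above all of those at 35 days (log2 change 0.63, SE 0.16, adjusted p = 0.0239). Chrdl1 did not pass under scaling by total reads (0.56, adjusted p = 0.0504), with the anterior lobe covariate (0.59, adjusted p = 0.111) or once 35-day replicate 1 or 125-day replicate 1, 3 or 4 was left out (adjusted p = 0.0623 to 0.0684).

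Bmper, an endothelial regulator that binds BMPs, was at 161, 241, 386 and 211 at 35 days and at 69.1, 89.9, 84.5 and 102 at 125 days. Its ages were separate, with 35-day replicate 3 the highest, and the log2 change was -1.46 (SE 0.25, adjusted p = 0.00356). It was -1.23 (adjusted p = 0.00128) without that replicate and -0.96 (SE 0.26, adjusted p = 0.0342) with the anterior lobe covariate. The classical antagonists noggin and gremlin 1 did not pass, and their values turned on the same library. Nog was at 145 in 35-day replicate 3 and at 17.6 to 29.9 in the other 35-day libraries, against 1.95 to 19.3 at 125 days (log2 change -1.89, SE 0.73, adjusted p = 0.105). It passed in DESeq2 and with the replicate block (adjusted p = 0.0488), and its change was -0.35 (SE 0.70) with the anterior lobe covariate. Grem1 was at 262 in that library and at 8.52 to 53.7 in the others of 35 days, against 6.84 to 66.5 at 125 days (-1.51, SE 0.94, adjusted p = 0.309), and its change turned to 0.86 (SE 0.67) with the covariate. The part of anterior lobe tissue in these values was not tested beyond that fit. Chrd, Fst, Fstl1 and the other 3 follistatin-like or chordin-like genes had log2 changes between -0.40 and 0.43. Fstl1 passed without 35-day replicate 3 (-0.57, adjusted p = 0.0194) and with the anterior lobe covariate (-0.79, adjusted p = 0.0338).

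None of the 13 genes for receptors, co-receptor and pseudoreceptor was called in limma or edgeR with all 8 libraries, and DESeq2 called 1 higher. With all 8 libraries limma called 17.7% of all genes. In limma 3 were called lower once 35-day replicate 3 was left out, where 14.8% of all genes were so. Once the anterior lobe term was added 2 were called lower, where 7.32% of all genes were so. At an unadjusted p below 0.05 there were 2, where 31.6% of all genes were so. These were Acvr1c, the type I receptor known as ALK7, with a log2 change of 0.75 (SE 0.25, adjusted p = 0.0688), and Acvrl1, the endothelial type I receptor ALK1, with -0.53 (SE 0.19, adjusted p = 0.0916). Acvr1c was at 109 to 245 at 35 days and at 229.7 to 358 at 125 days, and it was the gene called in DESeq2. It also passed with the replicate block (adjusted p = 0.0312) and without 35-day replicate 4. Acvrl1 was at 780.2 to 1171 and 518 to 976, and passed without 35-day replicate 3 (-0.64, adjusted p = 0.0251), without 125-day replicate 2, with the replicate block (adjusted p = 0.0378) and with the anterior lobe covariate (-0.80, adjusted p = 0.0498). The log2 changes of the TGF-beta receptor genes were close to 0, with Tgfbr1 at -0.01 (95% confidence interval -0.23 to 0.21), Tgfbr2 at -0.15 (-0.54 to 0.23) and Tgfbr3, the co-receptor betaglycan, at 0.06 (-0.22 to 0.34). For the BMP receptor genes the intervals were wider, with Bmpr1a at -0.19 (-0.68 to 0.30), Bmpr1b at -0.20 (-0.97 to 0.57) and Bmpr2 at -0.07 (-0.60 to 0.46). In each of these 3 genes 35-day replicate 3 was the lowest of its age, Bmpr2 for example at 4096 against 7615 to 9303. Without that library Bmpr1a passed (-0.45, SE 0.06, adjusted p = 5.90e-04), as did the type II receptor gene Acvr2b (-0.27, SE 0.07, adjusted p = 0.0209). Bmpr1b passed once the anterior lobe term was added (SE 0.29, adjusted p = 0.0467), with a change of -0.997 on the log2 scale.

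The Smad genes did not pass either. None of the 10 Smad and Smurf genes was called in limma, edgeR or DESeq2 with all 8 libraries, and 1 had an unadjusted p below 0.05. In limma 17.7% of all genes were called, and 31.6% had an unadjusted p below 0.05. The ubiquitin ligase gene Smurf2 passed without 35-day replicate 3 (-0.24, SE 0.07, adjusted p = 0.0253). The gene with an unadjusted p below 0.05 was Smad3, which carries TGF-beta and activin signals. Smad3 was at 1328, 1422, 1157 and 1456 at 35 days and at 1445, 1795, 1527 and 1744 at 125 days, overlapping at 35-day replicate 4 and 125-day replicate 1 (log2 change 0.28, SE 0.11, adjusted p = 0.108). Smad4, the common partner, was at 2766, 3135, 2099 and 2931 at 35 days and at 2747, 2638, 2774 and 2592 at 125 days. The log2 change of Smad4 was -0.01, with a 95% confidence interval from -0.28 to 0.26, and the lowest library was again 35-day replicate 3.

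The inhibitory Smads are induced by the pathway and block it. Smad6 was at 313, 359.6, 349.8 and 458 at 35 days and at 369, 399, 342 and 399.8 at 125 days (log2 change 0.04, interval -0.26 to 0.34). Smad7 was at 947, 1095, 864 and 1165 and then at 1004, 1333, 1046 and 1229.8 (0.18, interval -0.11 to 0.47). The ages overlapped in both genes. Over all 10 genes the changes lay between -0.11 and 0.43, with Smad9 at the upper end (interval -0.07 to 0.92). These intervals, from the fit with age as the only term, do not show that the levels were equal. With the endothelial covariate, chosen after seeing the data, Smad7 changed by 0.52 (SE 0.16, adjusted p = 0.125).

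Of 5 target genes 3 fell, where 8.87% of all genes were called lower. Id proteins bind basic helix-loop-helix factors and keep them from DNA, and Tgfbi encodes a secreted matrix protein named for its induction by TGF-beta. Id1 was at 1149, 1190.4, 1757 and 1096 at 35 days and at 568, 919.7, 750.2 and 747 at 125 days. Its ages were separate, with 35-day replicate 3 far above the other libraries (log2 change -0.79, SE 0.18, adjusted p = 0.0145). Id3 was at 1651, 1856, 3222 and 1973 at 35 days and at 873, 1322, 1039 and 1181 at 125 days. The same library was the highest, and the ages were again separate (-0.94, SE 0.21, adjusted p = 0.0115). Without 35-day replicate 3 the changes were -0.64 (SE 0.14, adjusted p = 0.00730) for Id1 and -0.74 (SE 0.13, adjusted p = 0.00281) for Id3. With the anterior lobe covariate they were -0.65 (SE 0.24, adjusted p = 0.0993) and -0.66 (SE 0.25, adjusted p = 0.106), no longer called.

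Tgfbi was at 2201, 2145, 1663 and 1844 at 35 days and at 964, 1359, 1077 and 1074 at 125 days, with no overlap. Unlike in Id1 and Id3, 35-day replicate 3 was the lowest of its age, and the log2 change of -0.81 (SE 0.13, adjusted p = 0.00253) was -1.06 (adjusted p = 0.00142) with the anterior lobe covariate. The other Id genes did not pass. Id2 was at 840.0, 589, 952 and 719.6 at 35 days and at 769, 647, 611 and 786 at 125 days (-0.13, interval -0.47 to 0.22). Id4, of glial precursors, was at 6471, 6277, 5663 and 5533 and then at 4138, 6529, 5108 and 5048 (-0.22, interval -0.52 to 0.08). In Id4 the 125-day replicate 2 was the highest of all 8 libraries.

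The promoters of the target genes that fell are shown because Id1 and Id3 shared the same highest library, 35-day replicate 3, in which Tgfbi was the lowest of its age. The sequences are the 250 bases before the gene start in RefSeq, build GRCr8, 5′ to 3′ on the strand of the gene: chr3:161671314-161671563 (plus strand) for Id1, chr5:153656041-153656290 (plus strand) for Id3 and chr17:7990114-7990363 (minus strand) for Tgfbi. Capitals mark matches on either strand to GGCGCC, a GC element bound by BMP Smads, to CAGAC, the Smad box, or to TATAA, the TATA box, whose 2 matches in Id1 overlap.
Id1: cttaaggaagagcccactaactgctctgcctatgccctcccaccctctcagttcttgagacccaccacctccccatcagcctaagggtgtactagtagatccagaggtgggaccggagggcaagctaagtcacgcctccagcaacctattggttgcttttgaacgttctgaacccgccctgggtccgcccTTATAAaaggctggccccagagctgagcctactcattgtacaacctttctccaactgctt
Id3: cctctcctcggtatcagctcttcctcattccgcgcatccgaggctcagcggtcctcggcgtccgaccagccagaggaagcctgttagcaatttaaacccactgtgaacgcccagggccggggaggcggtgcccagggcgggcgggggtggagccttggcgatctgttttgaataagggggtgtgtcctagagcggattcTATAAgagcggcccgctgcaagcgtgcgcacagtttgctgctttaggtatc
Tgfbi: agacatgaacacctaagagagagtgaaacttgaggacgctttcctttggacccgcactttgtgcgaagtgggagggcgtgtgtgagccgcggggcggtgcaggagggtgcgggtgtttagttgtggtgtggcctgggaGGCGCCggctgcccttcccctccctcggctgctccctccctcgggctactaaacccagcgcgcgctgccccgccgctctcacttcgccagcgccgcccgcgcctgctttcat
Id1 and Id3 held a TATAA match and no match to the other motifs in this window, and Tgfbi held 1 GGCGCC. Of 49 members matched by symbol in the promoter table, 14 held GGCGCC, 10 held CAGAC and 8 held TATAA. Of all 33469 promoters in that table, which covers all gene types, 8.69%, 42.9% and 24.0% held them. A match is a description of the letters, not of a bound site.

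**Figure D4:**
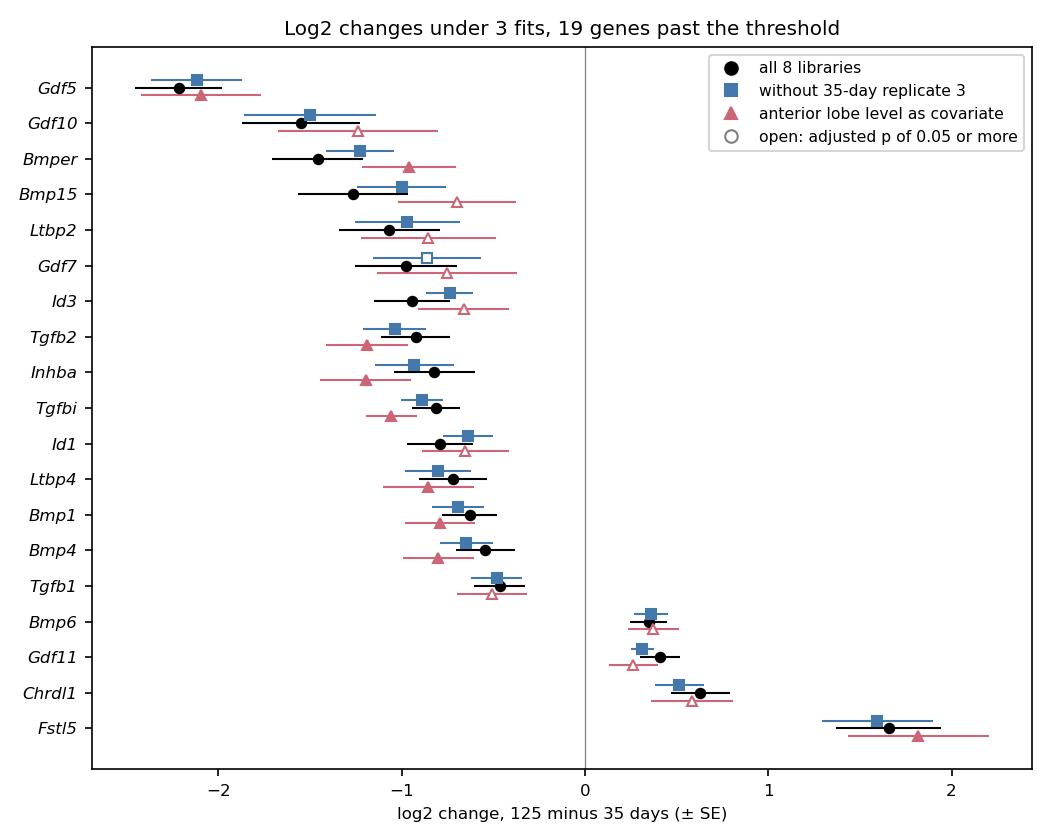
Log2 change from 35 to 125 days with SE (x axis) of the 19 genes called with all 8 libraries, beside 2 other fits, one that leaves out 35-day replicate 3 and one that adds the anterior lobe covariate; open symbols did not pass the threshold. No gene crosses 0, and 18 are filled without replicate 3 but 9 with the covariate.

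Other genes of the pathway were read from 4 lists that hold no member. The counts stand beside 8.87% called lower and 8.85% called higher over all genes tested in limma. An unadjusted p below 0.05 was found for 31.6% of all genes. Of 8 further ligand, co-receptor and receptor genes tested, 3 fell and none rose (edgeR and DESeq2 called the same numbers, and 5 had an unadjusted p below 0.05). Cd109, a TGF-beta co-receptor, went from 174 ± 28.5 to 91.6 ± 14.2 (log2 change -0.92, SE 0.17, adjusted p = 0.00610). Eng, the endothelial co-receptor endoglin, changed by -0.74 (SE 0.21, adjusted p = 0.0342), and did not pass once 35-day replicate 1, 2 or 4 or 125-day replicate 1, 3 or 4 was left out. Vasn, a TGF-beta trap, changed by -0.48 (SE 0.14, adjusted p = 0.0434) and failed for the same 6 libraries.

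Among 29 extracellular regulators 7 fell and 1 rose, where 8.87% and 8.85% of all genes were so called. Fbn2, a fibrillin of growing microfibrils, went from 381 ± 128 to 51.1 ± 11.7 (-2.82, SE 0.28, adjusted p = 1.79e-04). Vwc2, the BMP antagonist brorin, went from 248 ± 57.3 to 71.7 ± 20.2 (-1.80, SE 0.24, adjusted p = 8.95e-04). Wfikkn2, which binds Gdf11 and myostatin, fell by 0.89 (SE 0.14), and the proteoglycan gene Bgn fell by 0.85 (SE 0.16). The gene that rose was Itgb6, an integrin subunit that activates latent TGF-beta, named after its values were seen (0.73, SE 0.15, adjusted p = 0.0088, and 0.0780 with the anterior lobe covariate). Of 28 Smad partners and intracellular regulators 1 fell in limma, the endocytic adaptor gene Dab2 (-0.54, SE 0.13, adjusted p = 0.0207), and none rose. In edgeR 1 was also lower and none higher, while DESeq2 called 2 lower and 1 higher (12.3% and 11.2% of all genes). Without 35-day replicate 3, 6 were lower and 0 higher (14.8% and 15.9% of all genes). The anterior lobe covariate gave 1 lower and 1 higher (7.32% and 7.16% of all genes). The list had 6 genes of 28 at an unadjusted p below 0.05, where 31.6% of all genes were so. Dab2 did not pass once 35-day replicate 1, 2 or 4 or 125-day replicate 1 or 3 was left out.

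Of 21 genes that TGF-beta or BMPs can induce in other cells, 12 fell and 2 rose (8.87% and 8.85% of all genes). The collagen genes Col1a1 (-2.29, SE 0.23), Col3a1 (-1.81, SE 0.19) and Col1a2 (-1.30, SE 0.16) and Postn, encoding periostin (-1.51, SE 0.13), had the lowest adjusted p, up to 5.30e-04. Those that rose, Junb (2.54, SE 0.50, adjusted p = 0.00723) and Ccn1 (0.76, SE 0.21, adjusted p = 0.0343), are also immediate early genes and were named after their values were seen. Ccn1 did not pass with the replicate block (adjusted p = 0.0535) or in 7 of the 8 fits with a library left out, all but that without 35-day replicate 3. The list's median log2 change was -0.52, beside 0.01 over all genes tested. Several of its genes are matrix genes already known to be lower in these libraries, so the list is no independent evidence of pathway activity.

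Marker lists of several cell types also differed between the ages, in the same libraries. Their counts stand beside 8.87% of all genes called lower and 8.85% called higher. Fibroblast markers were lower at 125 days in 9 of 11, pericyte and smooth muscle markers in 9 of 11 (with Myh11 higher), and endothelial markers in 8 of 12. Their mean log2 levels were 11.6 to 11.9, 9.60 to 10.1 and 10.8 to 11.1 at 35 days, and 10.5 to 11.1, 8.91 to 9.58 and 9.94 to 10.8 at 125 days. None of these markers was at 0 in any library. The summed levels went from 78200 to 106255, 11507 to 20300 and 26062 to 35708 at 35 days to 31156 to 48547, 10720 to 15109 and 16036 to 31336 at 125 days. Proliferation markers were lower in 11 of 12 (mean log2 level 9.55 to 9.70 at 35 days and 7.12 to 7.36 at 125 days). Pituicyte markers were lower in 4 of 14 (11.87 to 11.99 and 11.13 to 11.60). Microglia and macrophage markers were lower in 4 of 10, with Cd68 higher (9.73 to 9.91 and 9.22 to 9.77). Summed levels of these 3 lists were 12201 to 13229, 72209 to 87156 and 12900.0 to 15031 at 35 days and 4273 to 4783, 53861 to 73792 and 9304 to 14722 at 125 days, with no marker at 0. The part of these cell types in the members' changes was not tested beyond the endothelial fit given next. In whole-lobe RNA fewer cells of a type and less RNA per cell cannot be told apart.

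Within the 125-day group, replicate 2 had the highest level of the fibroblast, the pericyte and smooth muscle, and the endothelial lists. It was also the highest of its age for the pituicyte, microglia and macrophage, and bone and cartilage lists. For the anterior lobe, intermediate lobe and proliferation lists it was the lowest of its age. Among the members, replicate 2 was the highest of its age for 34 of 63 (54.0%), where 27.6% of all genes had it highest. It was the highest for 9 of the 15 members that fell, among them Tgfb1, Tgfb2, Inhba, Bmp1, Ltbp4 and Tgfbi. At 35 days replicate 3 was the lowest library for 40 of the 63 members (63.5%), against 39.9% of all genes, and the highest for 16, against 38.7% of all genes. With the endothelial level as a covariate, chosen after seeing the data, 2 members were called lower and none higher (2% and 1.26% of all genes), Gdf5 (-2.09, SE 0.39, adjusted p = 0.0242) and Nog (-4.06, SE 0.78, adjusted p = 0.0278). In that fit Tgfb1 changed by -0.10 (SE 0.16), Tgfb2 by -0.34, Ltbp4 by -0.13 (SE 0.18), Inhba by -0.12 (SE 0.21) and Bmp1 by -0.17 (SE 0.15). Bmper changed by -1.36 (SE 0.41), Bmp15 by -1.86 (SE 0.43) and Gdf10 by -1.45 (SE 0.53). Since the endothelial level itself differed between the ages, what belongs to age and what to that level cannot be told apart.

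Bone and cartilage, and erythroid and blood markers, had lower mean log2 levels at 125 days, the age at which Gdf5 and Gdf10 were lower. Within the 35-day group, replicate 1 had the lowest Gdf5 and Gdf10. It had the lowest bone and cartilage level (5.63) but the highest erythroid and blood level (8.73) of that age. The highest 35-day library was replicate 3 for the bone and cartilage level and Gdf5, and replicate 2 for Gdf10. At 125 days it was replicate 2 for that level (5.20), replicate 3 for Gdf5 (37.8) and replicate 4 for Gdf10 (11.7). Of 10 bone and cartilage markers tested 5 were lower and 1 higher at 125 days, and all 7 erythroid and blood markers were lower. The mean log2 levels of the 2 lists were 5.63 to 6.49 and 8.21 to 8.73 at 35 days, and 4.72 to 5.20 and 5.31 to 6.89 at 125 days. The summed levels were 1849 to 2694 and 7094 to 11408 at 35 days and 1969 to 2215 and 1590 to 3874 at 125 days. The bone gene Mepe was at 0 in some libraries. The part of these tissues in the changes of Gdf5 and Gdf10 was not tested.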

How the data were processed

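RNA of the neural lobe was sequenced in 8 libraries, 4 of each age. The deposited table holds a depth-normalized signal per gene and library. Its values show that the authors scaled whole read counts by a single size factor in each library. Divided by the lowest value above 0 in its library, every value (100%) came out whole within 0.001 reads, so whole reads were recovered. Build rn7 and the tools HISAT2 2.2.1, featureCounts (Subread 2.0.1), Trimmomatic 0.39, SAMtools 1.13 and DESeq2 1.34.0 appear in the submitters' processing notes, with no order of use. The sources used here give neither the annotation nor the strandedness of counting, so overlapping or antisense genes cannot be told apart. The 2 columns of the authors' means were not used.

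Genes that reached 10 in 4 or more libraries were tested with limma 3.58.1 in R 4.3.3 (intensity trend, log2(value + 1), age as the only term). The pseudocount shrinks changes of genes with low values. SE and 95% intervals are those of this fit. The count test on the recovered reads, edgeR 4.0.16, called 3170 genes; DESeq2 1.42.0 was a further alternative, as were the pseudocount, the filter, 3 scalings, a replicate block, marker covariates and each left-out library. Members, roles and lists were chosen with earlier results of these data known. Values in every library are given for up to 12 called members per direction with the lowest adjusted p, and for the Tgfb, Id and 4 Smad genes. Uncalled members are named from a change of 0.5, and 4 genes per pathway list. Other uncalled members that passed in an alternative, and Itgb6, Ccn1 and Junb, were named after their values were seen.

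No libraries of the same age looked like copies, since pairs differed over genes with 16.8 to 298 times the variance expected from sampling reads. Size factors ran from 0.793 to 1.77. Same-numbered libraries did not deviate together (correlations -0.12 to 0.17), so numbers were not taken to pair samples. The values of 1 member that did not pass the test are not reported here. Figures were drawn with matplotlib 3.10.9.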

Additional observations from a re-analysis of the deposited data

Results flagged for a closer look

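Among the 24 genes given by library, 48 groups of 4 libraries were checked for a value far from the others, and chance marks about 1 in 20 such groups. One group stood out: Id1 was at 1757 in 35-day replicate 3 and at 1096 to 1190.4 in the other 35-day libraries. That library also had the highest anterior lobe marker level.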

How the results depend on the processing

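No called member changed sign in any of the 20 alternatives, but Gdf5 alone was called in every one. The number of members called higher (4) was 1 under scaling by total reads and 1 with the anterior lobe covariate, and 1 to 5 with a library left out. The number called lower (15) was 7 to 23 with a library left out. Without the level filter 12 members were called lower and 3 higher, and Tgfb1, Bmp4, Bmp6 and Gdf7 were lost. Over all 26462 genes of that fit 1606 were called lower and 1458 higher. With the endothelial covariate, chosen after seeing the data, 2 members were called lower and 0 higher, and 584 of all genes were called. The count over all genes, 3174, was 1894 to 5495 with a library left out. Directions of uncalled genes turned for Smad6 (-0.025 under scaling by total reads, -0.037 to 0.15 with a library left out), Grem1 (0.86 with the anterior lobe covariate), and, with the endothelial covariate, Acvrl1 (0.12), Smad4 (0.061), Id4 (0.14), Fstl1 (0.13), Bmpr1a (0.032), Bmpr1b (0.64), Acvr2b (0.086) and Smurf2 (0.095). Bmpr1b ran from -0.52 to 0.0020 with a library left out. Smad4 ran from -0.13 to 0.063 with a library left out, and was above 0 in 5 of these 8 fits. With the replicate block 2718 genes, 4 members higher and 16 lower, were called; only 35-day replicate 2 correlated best with its own number. Genes with few reads, such as Gdf10, are limited by depth.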
